A study of Arabidopsis thaliana with 48 samples.

Results

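The genes described here are 10 stress-related WRKY transcription factors, WRKY6 (AT1G62300), WRKY18 (AT4G31800), WRKY22 (AT4G01250), WRKY25 (AT2G30250), WRKY30 (AT5G24110), WRKY33 (AT2G38470), WRKY40 (AT1G80840), WRKY46 (AT2G46400), WRKY53 (AT4G23810) and WRKY60 (AT2G25000). They were taken by locus identifier from the authors' expression tables, which hold 32824 identifiers, and they are 10 of the 72 genes that RefSeq names WRKY. RNA was sequenced from whole Arabidopsis thaliana seedlings, 6 days old, of the accession Col-0 (WT) and of a line named rap2.3_1 that carries a T-DNA in the gene RAP2.3. Each genotype had 8 treatments with 3 biological repeats, which gave 16 groups and 48 libraries. Control seedlings (CT) received 50 µmol of light per square metre and second at 21 °C. Excess light (EL) was 700 µmol at 21 °C and heat (HS) was 33 °C, each for 1.5 h. Salt (S) was 50 mM NaCl in the plates on which the seedlings were raised, so exposure to it was long and exposure to light and heat was short. The stresses were also joined in pairs (EL+HS, S+EL and S+HS) and all together (S+EL+HS), and the question put to the genes was how each stress, alone and combined, altered their transcript levels in the 2 genotypes.

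WRKY proteins are plant transcription factors that bind the W-box, a short DNA element with the core TTGAC, and many of their own genes carry W-boxes. They are best known from immunity, leaf senescence and abiotic stress, where MAP kinases and VQ-motif proteins act on them. WRKY18, WRKY40 and WRKY60 form complexes with one another and act in defence and abscisic acid signalling. WRKY25 and WRKY33 are close relatives linked to heat and salt tolerance, and WRKY33 also drives synthesis of the phytoalexin camalexin. WRKY6 acts in phosphate homeostasis and senescence, WRKY22 in immune signalling downstream of MAP kinases, WRKY53 in senescence, and WRKY30 and WRKY46 in oxidative and osmotic stress.

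The library labels were checked first. Levels are in FPKM, fragments mapped to a gene relative to its length and to the library's mapped total. RAP2.3 transcript (AT3G16770) ranged from 34.9 to 86.1 FPKM over the 24 WT libraries. It ranged from 206 to 602 FPKM over the 24 labelled rap2.3, which goes against that label, so these are called the rap2.3-labelled libraries, and they come from 1 insertion line. FPKM summed to between 765860 and 822875 per library, 21267 to 23316 genes were above 0, and read depth is unknown. Root and shoot markers were both present, as in whole seedlings, with 0 zero values among the 6 root and 4 shoot markers in any group. The heat shock gene HSP101 went from 6.57 ± 1.06 FPKM at CT to 207 ± 88.3 FPKM at HS in WT, the light-induced ELIP1 from 16.5 ± 3.82 to 164 ± 34.7 FPKM at EL, and the osmotic stress gene RD29A from 7.06 ± 1.97 to 26.4 ± 8.09 FPKM at S (mean ± SD, n = 3). Each of these 3 increases passed the test used below.

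In FPKM, which is a level per length, WRKY25, WRKY33 and WRKY6 were the most abundant of the 10, with medians of 22.99, 19.28 and 15.3 FPKM over the 48 libraries. WRKY18, WRKY40, WRKY22 and WRKY60 had medians of 6.60, 5.44, 4.67 and 4.58 FPKM. WRKY53 (2.61 FPKM) and WRKY46 (2.03 FPKM) were lower. WRKY30 was the lowest, listed at 0 in 17 libraries and reaching 1 FPKM in 6. Ranges over the 16 group means were ranked by the ratio of the highest to the lowest mean. The widest were those of WRKY53 (0.694 to 5.75 FPKM), WRKY60 (1.26 to 10.002 FPKM) and WRKY18 (3.28 to 22.2 FPKM). The narrowest was that of WRKY25 (15.2 to 40.5 FPKM). WRKY30, whose lowest mean was 0, has no such ratio and was not ranked. WRKY33 (chromosome 2, 16108235 to 16110766 in TAIR10.1), WRKY40 (chromosome 1, 30383561 to 30385499) and WRKY53 (chromosome 4, 12392370 to 12393982) each overlap annotated genes on the opposite strand, WRKY40 by 51 bp and WRKY53 by 341 bp. The use of strand in the quantification is not given in the sources used here, so the values of these 3 genes are uncertain. The partner that overlaps WRKY53, AT4G23800, had a median of 19.9 FPKM, above WRKY53 itself. The other 7 genes overlap no annotated gene.

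**Figure D1:**
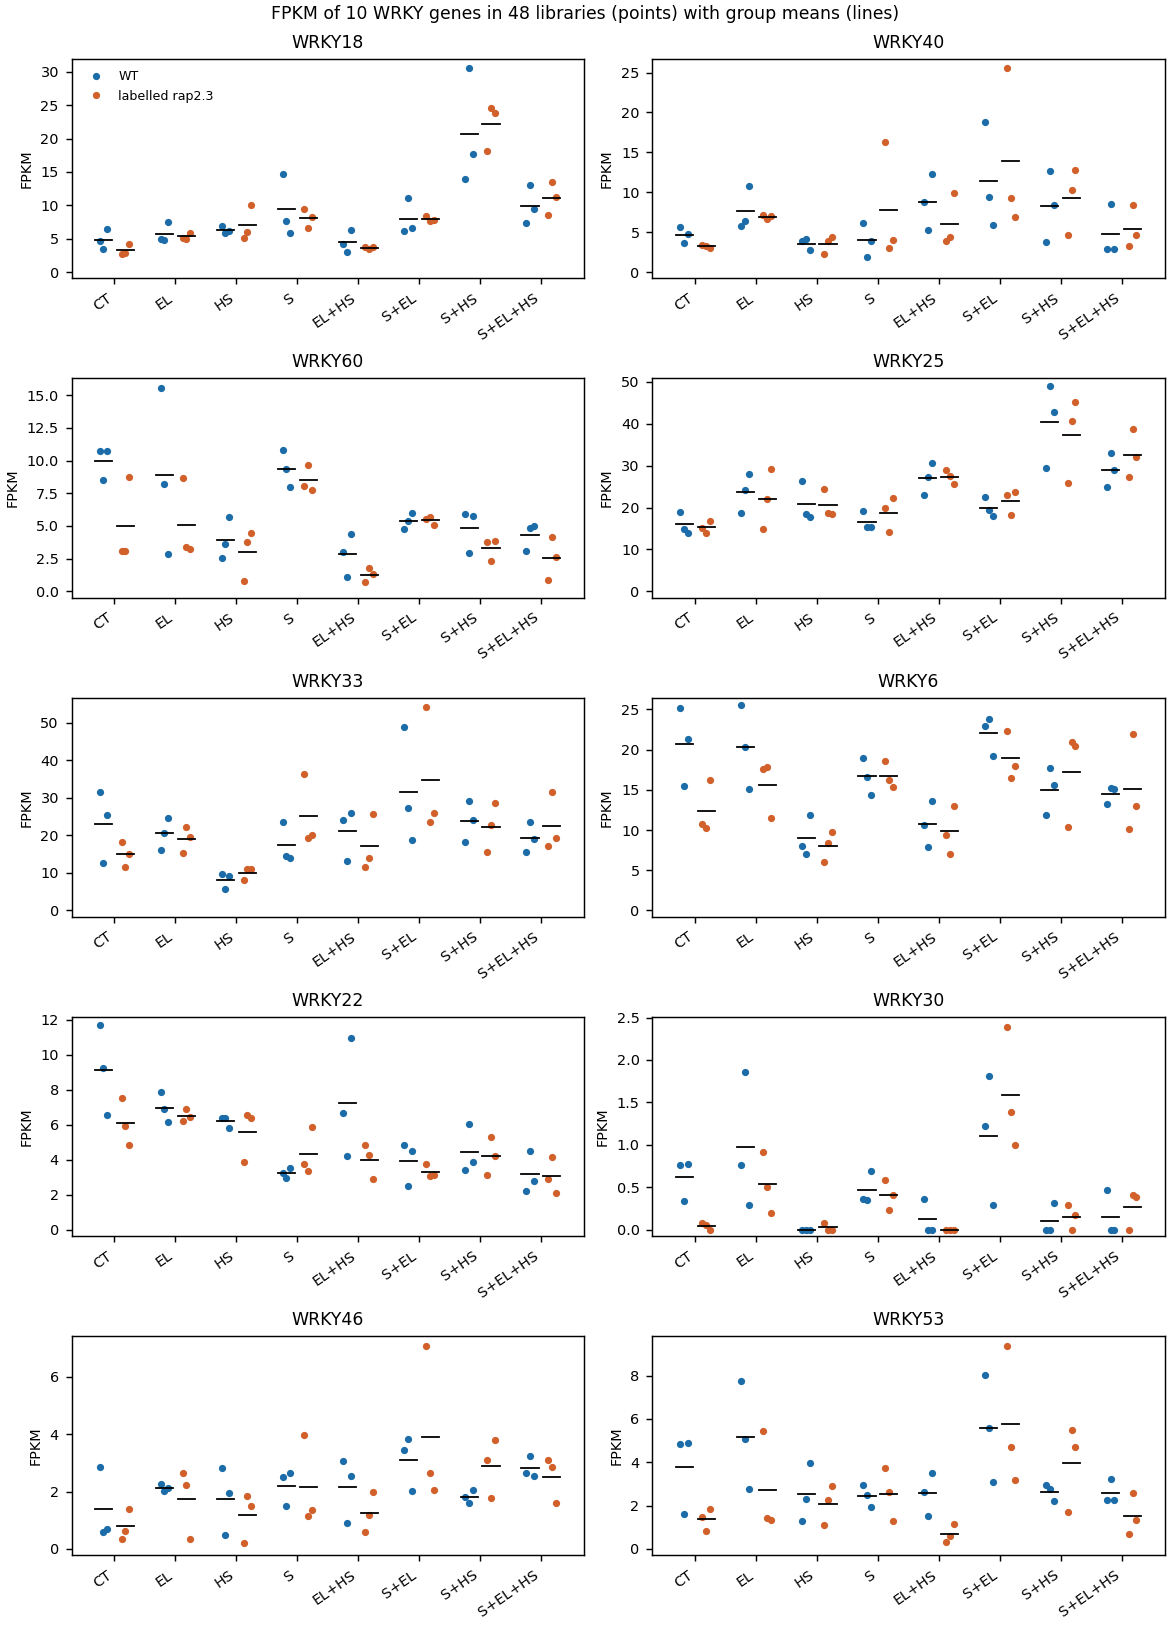
FPKM (linear axes from 0) of each of the 10 WRKY genes in the 48 libraries by treatment, blue for WT and orange for the rap2.3-labelled libraries, with a bar at each group mean (n = 3). WRKY18 and WRKY25 peak at S+HS in both genotypes, WRKY60 is lowest at EL+HS in both, and WRKY22 in WT is low in all 4 salt groups.

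The 250 bases before the annotated start of each gene were read from TAIR10.1, and 5 of them are shown, the 3 with several W-boxes and those of WRKY18 and WRKY60, which have none. WRKY30 (chr5:8154711-8154960, minus strand), WRKY33 (chr2:16107985-16108234, plus strand) and WRKY53 (chr4:12393983-12394232, minus strand) hold 3, 2 and 2 W-boxes. WRKY18 (chr4:15382527-15382776, plus strand) and WRKY60 (chr2:10629412-10629661, plus strand) hold none. Sequences run 5′ to 3′ on the strand of the gene and end at the base before its start, and capitals mark the W-boxes TTGACC and TTGACT, read as GGTCAA and AGTCAA where they lie on the other strand.
WRKY30: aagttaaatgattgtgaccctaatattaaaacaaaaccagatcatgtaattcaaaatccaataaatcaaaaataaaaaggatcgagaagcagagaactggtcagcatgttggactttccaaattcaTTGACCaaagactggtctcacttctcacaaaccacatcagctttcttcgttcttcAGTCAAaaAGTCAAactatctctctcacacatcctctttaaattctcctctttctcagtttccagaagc
WRKY33: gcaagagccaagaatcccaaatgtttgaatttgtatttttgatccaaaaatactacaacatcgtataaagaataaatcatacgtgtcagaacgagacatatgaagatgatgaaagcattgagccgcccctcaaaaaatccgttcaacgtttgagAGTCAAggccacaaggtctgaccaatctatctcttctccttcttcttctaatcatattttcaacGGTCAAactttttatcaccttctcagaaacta
WRKY53: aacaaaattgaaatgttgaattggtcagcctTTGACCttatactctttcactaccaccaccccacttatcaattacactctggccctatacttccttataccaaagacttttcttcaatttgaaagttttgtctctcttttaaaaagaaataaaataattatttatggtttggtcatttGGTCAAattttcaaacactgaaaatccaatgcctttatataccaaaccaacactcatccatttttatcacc
WRKY18: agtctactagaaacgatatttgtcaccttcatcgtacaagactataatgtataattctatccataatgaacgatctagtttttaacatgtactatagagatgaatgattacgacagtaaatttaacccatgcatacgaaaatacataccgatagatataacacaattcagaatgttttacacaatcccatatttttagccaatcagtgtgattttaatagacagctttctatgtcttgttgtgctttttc
WRKY60: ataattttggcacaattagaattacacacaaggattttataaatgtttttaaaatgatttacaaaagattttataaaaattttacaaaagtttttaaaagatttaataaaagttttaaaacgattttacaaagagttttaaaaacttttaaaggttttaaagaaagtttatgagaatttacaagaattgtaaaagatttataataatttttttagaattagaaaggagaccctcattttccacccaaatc
At least 1 W-box was found in 4 of the 10 windows (the fourth is that of WRKY25) and in 28.4% of the windows of all 27561 protein-coding genes. At least 2 were found in 3 of 10 windows and in 6.16% of all. The core TTGAC, which the W-boxes contain, was in 7 of 10 windows against 44.9%. The rapid stress response element CGCGTT was in the WRKY25 window alone (2.58% of all), and neither the heat shock element (0.392% of all) nor the G-box CACGTG (6.46% of all) was in any. The WRKY25 window overlaps a neighbouring protein-coding gene, AT2G30260, which no other member's window does. Both strands were searched. These are matches of letters in a short window, not binding sites.

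**Figure D2:**
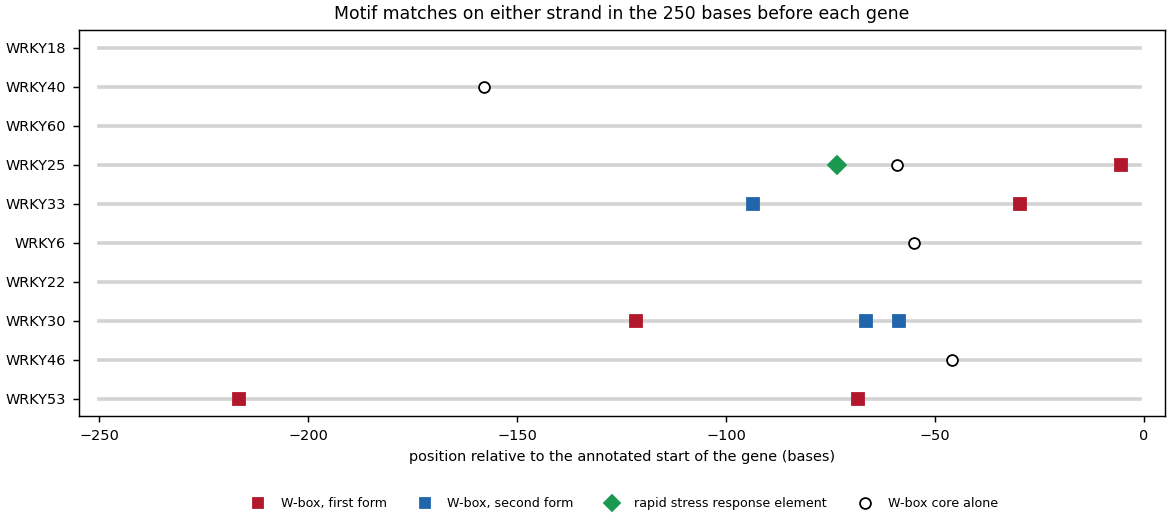
Motif matches on either strand in the 250 bases before the annotated start of the 10 WRKY genes, with distance from the start in bases on the x axis. Red and blue squares are the W-boxes TTGACC and TTGACT, open circles the core alone and the green diamond the rapid stress response element. WRKY30 has 3 W-boxes, WRKY33 and WRKY53 have 2, and WRKY18, WRKY22 and WRKY60 have no match.

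Each stress was set against CT within a genotype. Differences of log2(FPKM + 1), a scale that makes the change of weakly expressed genes look smaller, are given ± SE and were called at an adjusted p under 0.05 (limma, adjusted over all genes tested). All 7 comparisons of a genotype share its 3 CT libraries. In WT, 0 of the 10 genes were called under EL, where 17.7% of all 20744 genes were called, and 1 of the 10 had an unadjusted p under 0.05. Under HS 3 genes were called, all lower (30.8% of all genes), under S 1, lower (18.7%), and under EL+HS 3, of which 1 higher (31.3%). Under S+EL 1 gene was called, lower (36%), under S+HS 3, of which 2 higher (44.9%), and under S+EL+HS 4, of which 2 higher (39.9%). These shares are near or below those of all genes. Leaving out 1 library moved the counts to 1 under EL (without CT replicate 1 or EL replicate 1) and to 2 under S (without S replicate 3). It moved them to 2 or 3 under S+EL (without CT replicate 1, or S+EL replicate 3) and to 2 under S+EL+HS (without S+EL+HS replicate 2 or 3). Over all such fits the counts were 2 to 3 under HS and 2 to 4 under S+HS. Under S+EL+HS they were 2 to 3, so none kept the 4.

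In the rap2.3-labelled libraries, 0 genes were called under EL (14.3% of all 20592 genes, 2 of the 10 at an unadjusted p under 0.05). HS called 1 gene, higher (29.9%), S 1, higher (26.2%), EL+HS 2, of which 1 higher (41.9%), S+HS 3, all higher (42.9%), and S+EL+HS 3, of which 2 higher (42.7%). S+EL gave the highest count, with 7 genes called, 6 of them higher, against 34.7% of all genes (23.2% higher). One of the 6 is WRKY30, which passed the filter in these libraries only through the S+EL group itself. Leaving out CT replicate 3 moved the count to 1 under EL, 2 under S and 1 under EL+HS. Leaving out EL replicate 1 gave 1 under EL, and leaving out EL+HS replicate 1 gave 1 under EL+HS. Fits without 1 library gave 2 to 7 under S+EL and 2 to 4 under S+HS. Over all genes the median log2 difference came to -0.22 for EL+HS, 0.18 for S and 0.13 for S+HS. Rescaling of the libraries by size factors took these to -0.03, 0.03 and 0.03, and values for these comparisons are read against those shifts. In whole seedlings, fewer cells that use a gene and less of its RNA per cell cannot be told apart.

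**Figure D3:**
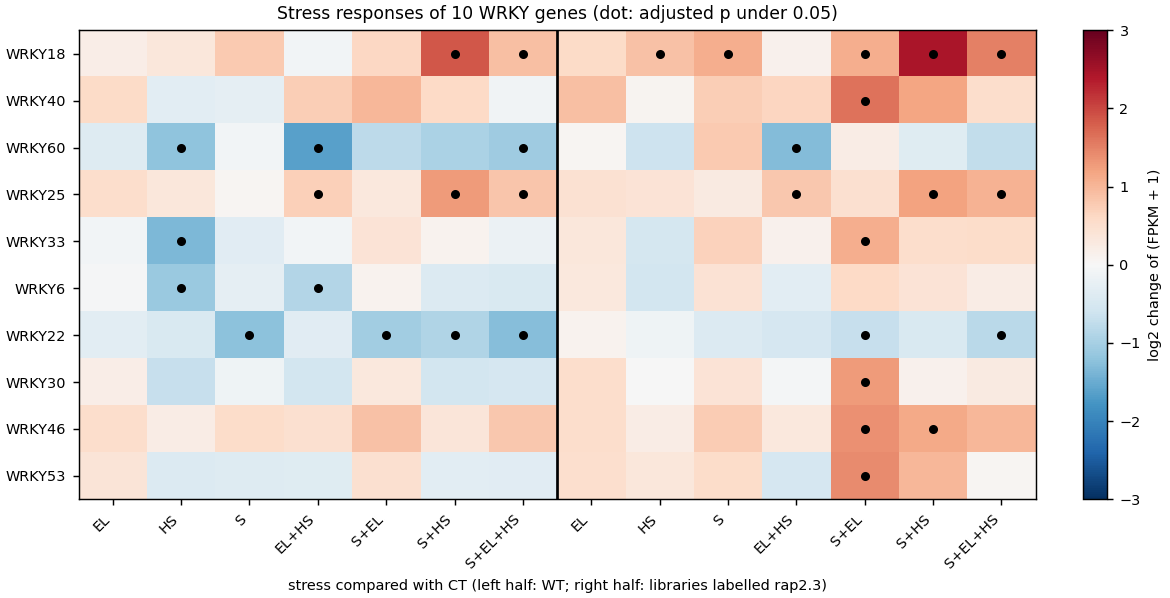
Log2 difference of (FPKM + 1) between each stress and CT for the 10 WRKY genes in WT (left) and in the rap2.3-labelled libraries (right), red for higher, blue for lower and white for 0. A dot marks an adjusted p under 0.05, and the column of S+EL on the right holds 7 dots. The dot of WRKY30 there is tied to the filter on low values.

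WRKY18 reached its highest level when salt and heat were combined, in both genotypes. In WT it was 4.65, 3.44 and 6.38 FPKM at CT and 13.9, 30.5 and 17.7 FPKM at S+HS. The rap2.3-labelled libraries had 2.69, 2.90 and 4.27 FPKM at CT and 18.2, 24.6 and 23.9 FPKM at S+HS. No S+HS library came near a CT library in either genotype. The log2 differences were 1.86 ± 0.32 (adjusted p 8.87e-05) and 2.44 ± 0.20 (adjusted p 1.64e-08). The single stresses gave less, with means of 6.25 ± 0.578 FPKM at HS and 9.39 ± 4.65 FPKM at S in WT, neither of which passed, and of 7.06 ± 2.67 and 8.15 ± 1.42 FPKM in the rap2.3-labelled libraries (SD, n = 3). Both of the latter passed, at 0.88 ± 0.20 (adjusted p 0.00212) and 1.10 ± 0.20 (adjusted p 4.36e-04).

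WRKY18 rose when salt was added to heat, by 1.51 ± 0.32 in WT (adjusted p 0.00237, where 21.7% of all genes were called) and by 1.56 ± 0.20 in the rap2.3-labelled libraries (adjusted p 2.64e-05, 21.9%). It also rose when heat was added to salt, by 1.08 ± 0.32 (adjusted p 0.0136, 31.4%) and 1.34 ± 0.20 (adjusted p 5.10e-05, 27.5%). The WT call for added heat was lost without S replicate 2, S replicate 3 or S+HS replicate 2 (adjusted p up to 0.0978), and 1 S library, at 14.7 FPKM, lay above the lowest S+HS library. The S+HS response itself was not shown to depart from the sum of the responses to S and HS, at 0.74 ± 0.45 in WT (adjusted p 0.42) and 0.46 ± 0.28 in the rap2.3-labelled libraries (adjusted p 0.455).

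WRKY18 was lower where light was added to heat, and this passed in the rap2.3-labelled libraries but not in WT. In WT the differences were -0.44 ± 0.32 for EL+HS against HS (adjusted p 0.358) and -0.95 ± 0.32 for S+EL+HS against S+HS (adjusted p 0.139). In the rap2.3-labelled libraries it was 5.10, 5.98 and 10.1 FPKM at HS and 3.804, 3.45 and 3.72 FPKM at EL+HS. Added light lowered it by 0.74 ± 0.20 on the log2 scale (adjusted p 0.00639, 38.1% of all genes called), a call lost without HS replicate 3 and in a fit of the 6 compared libraries (adjusted p up to 0.0623). The median over all genes in this comparison was -0.22, which rescaling took to -0.008. Under S+HS the addition of light lowered WRKY18 from 22.2 ± 3.52 to 11.1 ± 2.53 FPKM (-0.95 ± 0.20, adjusted p 0.00856, 4.48%), lost without S+EL+HS replicate 1 (adjusted p 0.066). For EL+HS the WRKY18 response fell short of the sum of the responses to EL and HS by -1.32 ± 0.28 (adjusted p 0.00468, 14.8% of all genes called). The median departure over all genes was -0.20, and -0.01 after rescaling. In WT the departure of WRKY18 was -0.65 ± 0.45 and did not pass (adjusted p 0.398, 9.28% of all genes called), with means of 6.25 ± 0.578 FPKM at HS and 4.51 ± 1.69 FPKM at EL+HS. Under S+EL+HS WRKY18 was still above CT, at 9.93 ± 2.83 FPKM in WT (0.91 ± 0.32, adjusted p 0.0287, lost without CT replicate 1 or 2 or S+EL+HS replicate 2 or 3, up to 0.124) and at 11.1 ± 2.53 FPKM in the rap2.3-labelled libraries (1.50 ± 0.20, adjusted p 6.12e-06).

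WRKY60, a partner of WRKY18 in protein complexes, fell under heat in WT. At CT its WT values were 10.7, 8.54 and 10.7 FPKM, against 2.57, 3.58 and 5.67 FPKM at HS and 2.99, 1.09 and 4.38 FPKM at EL+HS. Every WT library of HS and EL+HS lay below every CT library. The log2 differences were -1.20 ± 0.39 (adjusted p 0.0255) and -1.62 ± 0.39 (adjusted p 0.00378). The call at HS was lost in 4 fits that each left out 1 library, CT replicate 1 or 3 or HS replicate 1 or 2 (adjusted p up to 0.102). Under S+EL+HS it was 4.32 ± 1.04 FPKM (-1.06 ± 0.39, adjusted p 0.0371), a call that 8 alternatives lost (adjusted p up to 0.13). Low WT values were not confined to groups with heat. At S+EL, without heat, WRKY60 was 4.74, 5.37 and 5.97 FPKM, and at S+HS 5.92, 2.92 and 5.73 FPKM. All of these libraries lay below every CT library, but neither difference from CT passed.

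WRKY60 in the rap2.3-labelled libraries started from 3.11, 3.08 and 8.78 FPKM at CT, so that 1 CT library lay far above the others. At HS it was 0.781, 3.76 and 4.43 FPKM, which overlapped CT and did not pass (-0.61 ± 0.42, adjusted p 0.303). It was 0.720, 1.76 and 1.31 FPKM at EL+HS, below all of CT (-1.30 ± 0.42, adjusted p 0.0179). That call was lost without CT replicate 3, the high library, or without EL+HS replicate 1 (adjusted p up to 0.122). Heat added to salt took WRKY60 from 8.48 ± 1.04 to 3.31 ± 0.856 FPKM (-1.15 ± 0.42, adjusted p 0.0473), a call that 9 alternatives lost, the replicate block among them at an adjusted p of 0.051. Averaged over the 4 backgrounds without heat (CT, EL, S and S+EL), the effect of adding heat was -0.89 ± 0.20 in WT (adjusted p 8.99e-04) and -1.02 ± 0.21 in the rap2.3-labelled libraries (adjusted p 4.71e-04), and both held under every alternative run. For WRKY18 the corresponding mean effect of heat was 0.36 ± 0.16 in WT, which did not pass (adjusted p 0.073), and 0.55 ± 0.10 in the rap2.3-labelled libraries (adjusted p 1.32e-04).

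WRKY40, the remaining partner, was higher mainly under S+EL, with widely spread libraries. In WT it was 5.62, 3.62 and 4.82 FPKM at CT and 18.8, 9.41 and 5.89 FPKM at S+EL, and this difference did not pass. The rap2.3-labelled libraries had it at 3.42, 3.24 and 2.96 FPKM at CT and 25.5, 9.30 and 6.90 FPKM at S+EL. There all S+EL libraries lay above CT, and the difference passed at 1.62 ± 0.49 (adjusted p 0.0143). Replicate 1 of S+EL was the highest in both genotypes, and without it the call in the rap2.3-labelled libraries was lost (1.10, adjusted p 0.103). Under EL alone WRKY40 was 6.92 ± 0.291 FPKM in the rap2.3-labelled libraries and 7.64 ± 2.73 FPKM in WT, neither of which passed.

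WRKY25, of the pair linked to heat and salt tolerance, was higher wherever heat was joined by another stress. WT values were 18.96, 14.9 and 13.98 FPKM at CT, 29.5, 49.1 and 42.9 FPKM at S+HS and 25, 33.0 and 29.1 FPKM at S+EL+HS. At EL+HS they were 23.1, 27.2 and 30.7 FPKM. All 9 of these combined-stress libraries lay above the 3 of CT. The log2 differences were 1.27 ± 0.19 (adjusted p 1.98e-05) at S+HS, 0.83 ± 0.19 (adjusted p 0.00175) at S+EL+HS and 0.72 ± 0.19 (adjusted p 0.00675) at EL+HS. The same 3 comparisons passed in the rap2.3-labelled libraries, at 1.20 ± 0.22 (adjusted p 1.89e-04), 1.04 ± 0.22 (adjusted p 7.83e-04) and 0.81 ± 0.22 (adjusted p 0.00612). None of these 6 calls was lost under any alternative run. Heat alone gave 20.8 ± 4.84 FPKM in WT and 20.5 ± 3.34 FPKM in the rap2.3-labelled libraries, against 15.96 ± 2.64 and 15.2 ± 1.45 FPKM at CT, and did not pass in either.

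Salt alone left WRKY25 close to CT, at 16.6 ± 2.23 FPKM in WT and 18.8 ± 4.08 FPKM in the rap2.3-labelled libraries. Added to heat, it raised WRKY25 by 0.92 ± 0.19 in WT (adjusted p 0.00207) and by 0.81 ± 0.22 in the rap2.3-labelled libraries (adjusted p 0.0124, lost without S+HS replicate 2 or 3, up to 0.0762). The departure of S+HS from the sum of S and HS was 0.87 ± 0.27 in WT, with an unadjusted p of 0.00432 that did not pass over all genes (adjusted p 0.132, 0.231% of all genes called), and 0.54 ± 0.31 in the rap2.3-labelled libraries (adjusted p 0.428, 0.0437%). Among the 10 genes this departure in WT was above 0 for 9, with 4 at an unadjusted p under 0.05 and 0 called. The median departure over all genes was -0.06, and the 10 genes share the same libraries. Among the 10 it was largest for WRKY33, at 1.80 ± 0.49 (adjusted p 0.0967), which was called without CT replicate 2 (adjusted p 0.0391). In the rap2.3-labelled libraries the departure was above 0 for 8, with 0 at an unadjusted p under 0.05, beside a median over all genes of -0.10. The mean effect of heat on WRKY25 over 4 backgrounds was 0.57 ± 0.10 in WT (adjusted p 5.66e-05) and 0.56 ± 0.11 in the rap2.3-labelled libraries (adjusted p 2.71e-04).

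WRKY33, the close relative of WRKY25, fell under heat in WT. Its values were 31.5, 12.6 and 25.4 FPKM at CT and 9.63, 5.65 and 9.08 FPKM at HS, with no overlap between the groups (-1.34 ± 0.34, adjusted p 0.00535). WRKY33 was higher than at HS when either other stress was added to heat. Salt brought WRKY33 to 18.3, 29.2 and 24.2 FPKM (1.46 ± 0.34 against HS, adjusted p 0.00531), and light to 24.1, 13.2 and 26.02 FPKM (1.25 ± 0.34, adjusted p 0.0159, 19.5% of all genes called). All 6 of these libraries lay above the 3 of HS. The call for light was lost without HS replicate 2 or EL+HS replicate 3 (adjusted p up to 0.0816).

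WRKY33 in the rap2.3-labelled libraries was 18.3, 11.6 and 15.03 FPKM at CT and 8.01, 10.95 and 10.98 FPKM at HS, a difference that did not pass. Salt added to heat gave 15.6, 22.7 and 28.6 FPKM (1.06 ± 0.33, adjusted p 0.0265), a call lost without HS replicate 1, S+HS replicate 2 or S+HS replicate 3 (adjusted p up to 0.126). The highest WRKY33 group was S+EL, at 54.3, 23.6 and 26.1 FPKM (1.08 ± 0.33 against CT, adjusted p 0.0149), a call lost without S+EL replicate 1 or CT replicate 2 (adjusted p up to 0.109).

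WRKY6, the regulator of phosphate transport and senescence, shared the fall under heat. In WT it was 25.1, 15.4 and 21.4 FPKM at CT, 7.98, 7.001 and 11.9 FPKM at HS and 10.6, 7.88 and 13.7 FPKM at EL+HS. Both heat groups lay wholly below CT, with differences of -1.12 ± 0.22 (adjusted p 5.47e-04) and -0.89 ± 0.22 (adjusted p 0.00418) that no alternative lost. Where salt was present the WT level under heat was 15.03 ± 2.96 FPKM at S+HS and 14.5 ± 1.11 FPKM at S+EL+HS, and neither passed against CT. Salt added to heat raised it by 0.70 ± 0.22 (adjusted p 0.027), with 1 HS library inside the range of S+HS, and 5 alternatives lost that call (up to 0.128). For the rap2.3-labelled libraries, WRKY6 was 12.4 ± 3.33 FPKM at CT and 8.04 ± 1.90 FPKM at HS, which did not pass. The mean effect of heat on WRKY6 was -0.68 ± 0.11 in WT (adjusted p 3.93e-05) and -0.39 ± 0.14 in the rap2.3-labelled libraries (adjusted p 0.0257, lost in 4 fits without 1 library, up to 0.0537).

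WRKY22, an immune regulator downstream of MAP kinases, was the one member that salt lowered. In WT it was 11.7, 9.23 and 6.54 FPKM at CT and 3.26, 2.95 and 3.50 FPKM at S. The S libraries were all under the lowest CT library, as were those of S+EL (4.86, 2.497 and 4.52 FPKM), S+HS (3.43, 6.06 and 3.85 FPKM) and S+EL+HS (2.24, 4.52 and 2.80 FPKM). The differences from CT were -1.23 ± 0.27 (adjusted p 0.00309), -1.04 ± 0.27 (adjusted p 0.00475), -0.90 ± 0.27 (adjusted p 0.0103) and -1.28 ± 0.27 (adjusted p 7.95e-04). That at S+HS was lost without CT replicate 1 or S+HS replicate 1 (adjusted p up to 0.06). Light, heat and both together gave 6.99 ± 0.846, 6.20 ± 0.340 and 7.27 ± 3.41 FPKM against 9.16 ± 2.58 FPKM at CT, and none of these passed.

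The rap2.3-labelled libraries had WRKY22 at 7.56, 5.93 and 4.83 FPKM at CT, 3.77, 3.07 and 3.15 FPKM at S+EL and 2.91, 4.19 and 2.11 FPKM at S+EL+HS, both without overlap with CT. The differences were -0.70 ± 0.23 (adjusted p 0.0216, lost in 4 fits without 1 library, up to 0.109) and -0.82 ± 0.23 (adjusted p 0.00685). At S (3.78, 3.38 and 5.86 FPKM) and S+HS (3.10, 5.29 and 4.22 FPKM) the libraries overlapped CT, and neither passed (-0.42 ± 0.23, adjusted p 0.183, and -0.45 ± 0.23, adjusted p 0.117). The mean effect of salt on WRKY22 was -0.83 ± 0.13 in WT (adjusted p 4.80e-05) and -0.47 ± 0.11 in the rap2.3-labelled libraries (adjusted p 0.00186), and both held under every alternative run.

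WRKY30, WRKY46 and WRKY53, which act in oxidative stress, osmotic stress and senescence, had their highest group means at S+EL in the rap2.3-labelled libraries. WRKY46 went from 0.356, 0.631 and 1.38 FPKM at CT to 7.07, 2.63 and 2.05 FPKM, and WRKY53 from 1.46, 0.820 and 1.86 FPKM to 9.38, 4.69 and 3.17 FPKM. Replicate 1 of S+EL was the highest library for both, and all S+EL libraries lay above CT. The differences were 1.36 ± 0.44 (adjusted p 0.0216) and 1.42 ± 0.43 (adjusted p 0.0145). In WT the S+EL levels were similar, 3.10 ± 0.963 FPKM for WRKY46 and 5.57 ± 2.47 FPKM for WRKY53, but CT was 1.38 ± 1.29 and 3.79 ± 1.89 FPKM, and neither passed.

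WRKY30 was 0.0842, 0.0516 and 0 FPKM at CT and 2.39, 1.38 and 1.00 FPKM at S+EL in the rap2.3-labelled libraries. These 3 S+EL libraries were the only ones of that genotype at 1 FPKM or more, so the filter on low values let WRKY30 into the test only through the group in which it was high. The difference was 1.28 ± 0.21 (adjusted p 1.11e-04), a call tied to the values that let WRKY30 into the test. It also passed with no filter (adjusted p 4.07e-05). The alternatives that could test it (adjusted p of at most 0.00379) all kept these 3 S+EL libraries, so they do not show how far the call rests on any of them. In WT, WRKY30 was 0.763, 0.337 and 0.775 FPKM at CT and 1.22, 1.81 and 0.293 FPKM at S+EL, with overlap. It was listed at 0 in all 3 WT libraries of HS. WRKY30 fell when heat was added to S+EL in the rap2.3-labelled libraries, where it was 0, 0.406 and 0.388 FPKM at S+EL+HS (-1.02 ± 0.21 against S+EL, adjusted p 0.0037, 15.3% of all genes called), a call tied to the filter in the same way. WRKY53 fell too, to 0.691, 2.58 and 1.34 FPKM (-1.37 ± 0.43, adjusted p 0.0365), although 6 alternatives lost that call, the replicate block among them at 0.0514.

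The 6 increases at S+EL in the rap2.3-labelled libraries, of WRKY18, WRKY30, WRKY33, WRKY40, WRKY46 and WRKY53, rested in part on single libraries. Replicate 1 of that group was the highest of the 3 for 8 of the 10 genes. Without it 2 of the 10 genes were called, WRKY18 (higher) and WRKY22 (lower), and without CT replicate 2 there were 3, WRKY18, WRKY30 and WRKY40. With any S+EL library left out, WRKY30 did not pass the filter and was not tested. WRKY18 did not share this dependence, with S+EL values of 8.37, 7.72 and 7.79 FPKM (1.08 ± 0.20, adjusted p 2.77e-04). Replicate 1 was also the highest WT library of S+EL for WRKY33 (49.0 against 27.2 and 18.7 FPKM), WRKY40 and WRKY53. WRKY46 under S+HS, at 3.11, 1.78 and 3.79 FPKM, passed as well (1.13 ± 0.44, adjusted p 0.046), and 8 alternatives lost that call.

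Across the factorial, each stress was averaged over the 4 backgrounds that lack it. Heat gave 5 calls in WT (47.4% of all genes), WRKY25 higher and WRKY6, WRKY30, WRKY53 and WRKY60 lower, and 5 in the rap2.3-labelled libraries (50.3%), WRKY18 and WRKY25 higher and WRKY6, WRKY30 and WRKY60 lower. In WT the 3 libraries that brought WRKY30 through the filter were all without heat, and in the rap2.3-labelled libraries they were those of S+EL, so its calls for heat, salt and light are tied to the values that let it into the test and are given without a size. Of the others, WRKY53 was at -0.48 ± 0.18 in WT (adjusted p 0.033, lost in 11 alternatives). Salt gave 2 calls in WT (45.9%), WRKY18 at 0.92 ± 0.16 (adjusted p 9.52e-05) and WRKY22 lower. It gave 9 in the rap2.3-labelled libraries (53.7%), WRKY22 lower and all others but WRKY60 higher, from 0.33 ± 0.11 for WRKY25 to 1.13 ± 0.10 for WRKY18. Light gave 0 calls in WT (27.8%, 4 of the 10 at an unadjusted p under 0.05, and up to 3 calls when EL+HS replicate 2 was left out) and 2 in the rap2.3-labelled libraries (43.8%), WRKY18 at -0.28 ± 0.10 (adjusted p 0.0275) and WRKY30.

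The 9 salt calls in the rap2.3-labelled libraries stood beside a median of 0.15 over all genes, which rescaling took to 0.02. Rescaling ended the calls of WRKY25 (0.18, adjusted p 0.198) and WRKY40 (0.48, adjusted p 0.111) and, for light, that of WRKY18 (-0.17, adjusted p 0.14). WRKY40 lost its salt call in 17 alternatives. In WT the number of salt calls rose from 2 to 6 without CT replicate 1 and to 4 without S+HS replicate 1, and the heat calls fell from 5 to 3 without S+EL replicate 1. The mean effect of light in the rap2.3-labelled libraries gave 4 calls without HS replicate 1 and 1 call without CT replicate 3, HS replicate 3, S+EL+HS replicate 1 or any S+EL replicate.

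**Figure D4:**
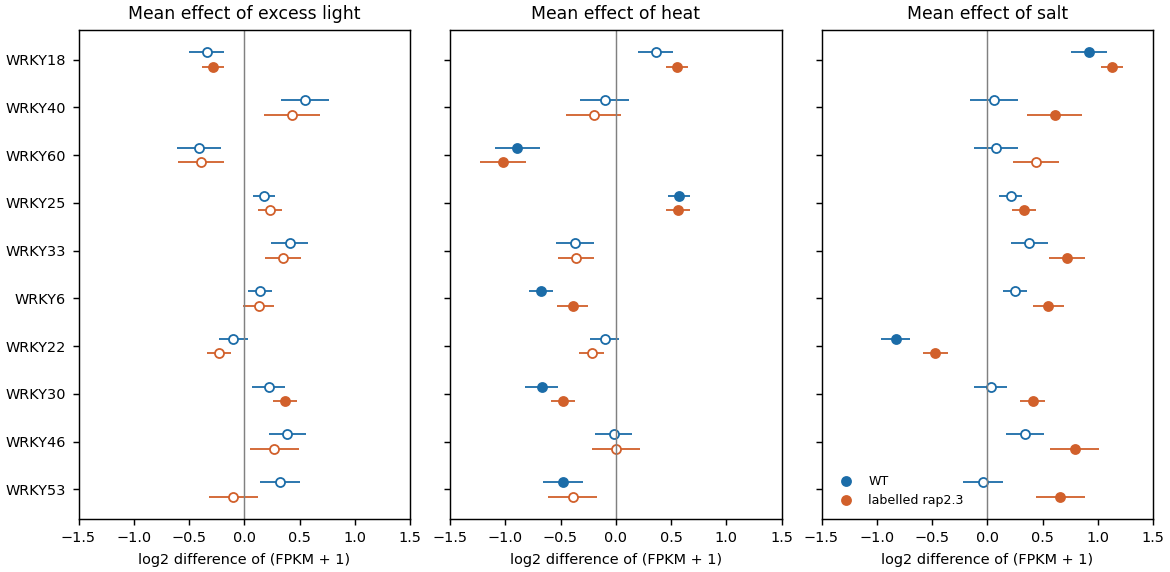
Mean effect of excess light, heat and salt on the 10 WRKY genes, as the log2 difference of (FPKM + 1) averaged over the 4 backgrounds without that stress, with bars of 1 SE, blue for WT and orange for the rap2.3-labelled libraries. Filled points have an adjusted p under 0.05, and under salt 9 orange points and 2 blue points are filled. The filled points of WRKY30 are tied to the filter on low values. Rescaling by size factors ended the salt calls of WRKY25 and WRKY40 in the rap2.3-labelled libraries.

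Tissue markers moved with salt. The summed level of the 6 root markers was 1778 to 4361 FPKM (median 2799) in the 12 WT libraries with salt and 1272 to 2951 FPKM (median 1730) in the 12 without, and 5 of the 6 rose in the mean effect of salt. In the rap2.3-labelled libraries the sums were 1348 to 4091 FPKM with salt and 712 to 2114 FPKM without, with 5 of 6 higher. The 4 shoot markers summed to 15199 to 23286 FPKM with salt and 17987 to 25173 FPKM without in WT, with 3 of 4 lower, and to 15128 to 21134 FPKM with salt and 16916 to 24932 FPKM without in the rap2.3-labelled libraries, with 3 lower and 1 higher. With heat the median root marker sum was 1760 FPKM against 2799 FPKM without in WT, and 1498 against 2119 FPKM in the rap2.3-labelled libraries. The median shoot marker sum was 17799 against 19917 FPKM and 18686 against 20598 FPKM. The root markers did not all move alike, since the mean effect of heat in WT raised 2 of the 6 and lowered 3. It lowered 3 of the 4 shoot markers and raised 0. The mean effect of light in WT raised 3 root markers and lowered 0, and raised 1 shoot marker and lowered 2. The part of these markers in the WRKY results was not tested.

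The genotypes were compared next. At each of the 8 treatments 0 of the 10 genes were called between the rap2.3-labelled libraries and WT. This was by limma over 21322 genes, in the fit without a block for replicate number. The share of all genes called was 7.39% at EL+HS, 0.155% at EL, 0.0657% at CT, 0.061% at S+EL+HS, 0.0281% at S+HS, 0.0234% at S and at S+EL, and 0.0188% at HS. At an unadjusted p under 0.05 there were 4 of the 10 at CT and 2 at EL+HS, and 0 at the other 6 treatments. At CT all 10 genes had lower fitted means in the rap2.3-labelled libraries, with a median log2 difference of -0.51. The median over all genes there was -0.03. The 10 genes share the same CT libraries, so their directions are not independent of one another. The share of all genes at an unadjusted p under 0.05 is not given here. The 4 at CT were WRKY60 (4.99 ± 3.28 against 10.002 ± 1.27 FPKM), WRKY6 (12.4 ± 3.33 against 20.6 ± 4.90 FPKM), WRKY53 (1.38 ± 0.523 against 3.79 ± 1.89 FPKM) and WRKY30. An exact two-sided permutation test of 3 against 3 libraries cannot go below a p of 0.1, which WRKY30 reached at CT, and it gave 0.2 for WRKY6, WRKY53 and WRKY60. The 2 at EL+HS were WRKY22 (-0.66 ± 0.26) and WRKY53 (-1.06 ± 0.41), beside a median over all genes of -0.14 there, which rescaling brought close to 0. A fit with a block for each replicate number within a treatment called WRKY6 at CT (adjusted p 0.0466) and both genes at EL+HS (adjusted p 0.035 and 0.00436), and leaving out WT EL+HS replicate 2 called WRKY22 there (-0.96, adjusted p 0.0295).

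Averaged over the 8 treatments, 1 member was called, WRKY60, lower by -0.48 ± 0.15 in the rap2.3-labelled libraries (adjusted p 0.0332), where 10.3% of all genes were called. It was lower in 7 of 8 treatments, and S+EL was the exception, at 5.42 ± 0.331 against 5.36 ± 0.618 FPKM. The call was lost in 13 fits that each left out 1 library (adjusted p up to 0.0597). WRKY53 was at -0.40 ± 0.14 and did not pass (adjusted p 0.0724), but 9 alternatives called it. With a block by replicate number within each treatment, WRKY53 (adjusted p 0.00215) and WRKY6 (-0.17, adjusted p 0.0318) were called as well. When 1 library was left out, 0 to 2 members were called.

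**Figure D5:**
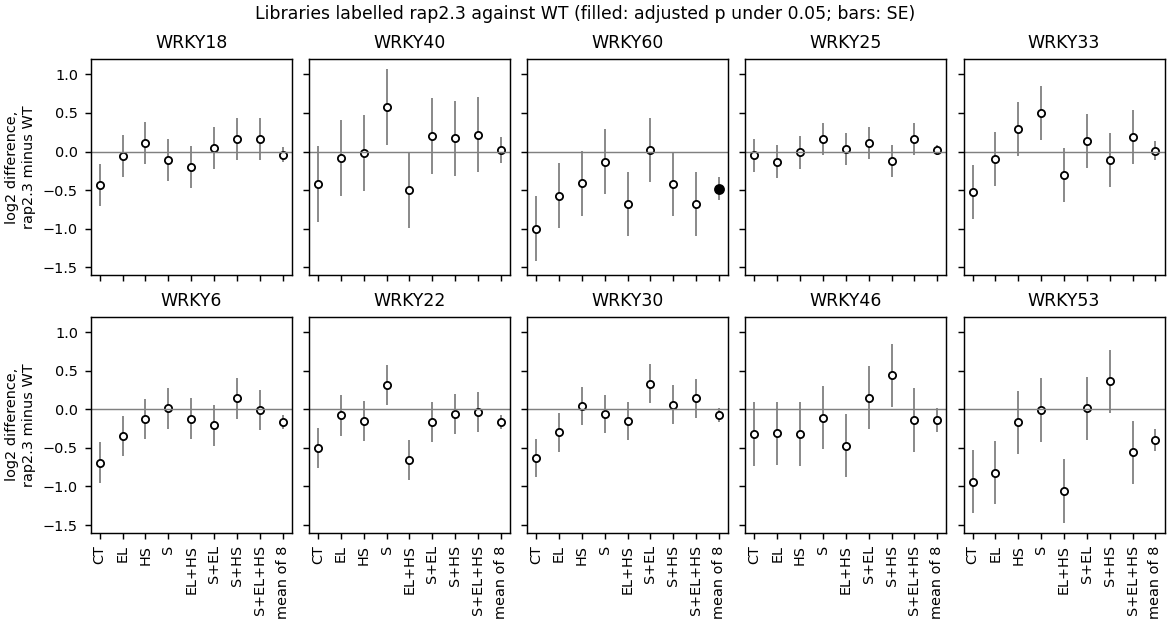
Log2 difference of (FPKM + 1), rap2.3-labelled libraries minus WT, for each WRKY gene at the 8 treatments and for their mean, with bars of 1 SE. The filled point, the mean of WRKY60 at -0.48, is the one with an adjusted p under 0.05 in the fit without a replicate block.

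Whether a stress response differed between the genotypes was tested as an interaction. For the 7 stresses 0 of the 10 genes were called by limma in any, with between 0 and 2 at an unadjusted p under 0.05, and 0.00469% of all genes were called at HS and at S+EL and 0% at the other 5. For the mean effects the interaction also gave 0 calls among the 10 and 0% of all genes, for light (smallest adjusted p 0.614), heat (0.989) and salt (0.762). The difference for salt was above 0 for all 10 genes, which share the same libraries, beside a median over all genes of 0.045. The 2 at an unadjusted p under 0.05 were WRKY53 (0.70 ± 0.29) and WRKY30. WRKY30 passed the filter in this fit mainly through libraries of S+EL, so its value is tied to the filter and is given without a size. The 9 salt calls in the rap2.3-labelled libraries and the 2 in WT are therefore not shown to differ. The contrast of mean effects was added after values had been seen.

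Genes that act with WRKY proteins were taken as lists, and those named were picked after their values were seen. Of 7 VQ-motif genes tested, which encode proteins that bind WRKY factors, 3 rose and 1 fell in the mean effect of heat in WT, and 2 rose and 2 fell in the rap2.3-labelled libraries, near the 47.4% and 50.3% called over all genes. The one that fell in WT was MKS1, a substrate of MPK4 that binds WRKY25 and WRKY33, which went from 9.97, 10.5 and 7.64 FPKM at CT to 4.46, 2.97 and 3.64 FPKM at HS, all below CT (-1.14 ± 0.18, adjusted p 5.27e-05). In the rap2.3-labelled libraries MKS1 was 6.01 ± 0.954 FPKM at CT and 4.91 ± 0.521 FPKM at HS, which did not pass (adjusted p 0.502). CAMBP25, a VQ protein of osmotic stress, rose at S+HS in both, to 16.2 ± 4.53 FPKM in WT (1.06 ± 0.20, adjusted p 2.94e-04) and to 18.4 ± 6.34 FPKM in the rap2.3-labelled libraries (1.23 ± 0.27, adjusted p 8.96e-04).

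Of 9 MAP kinase cascade genes tested, the mean effect of heat raised 1 and lowered 4 in each genotype, near the 47.4% and 50.3% of all genes called. MPK3, which phosphorylates WRKY33, was lower by -0.41 ± 0.10 in WT (adjusted p 0.00288) and by -0.41 ± 0.11 in the rap2.3-labelled libraries (adjusted p 0.00385). MPK4 was the one that rose, by 0.16 ± 0.05 (adjusted p 0.00958) and 0.17 ± 0.06 (adjusted p 0.0213). Salt raised 4 of the 9 in WT and 5 in the rap2.3-labelled libraries and lowered 0, near the 45.9% and 53.7% of all genes called.

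Of 11 known WRKY target genes tested, the mean effect of salt raised 7 and lowered 1 in WT and raised 7 and lowered 0 in the rap2.3-labelled libraries, with list medians of 0.34 and 0.48 against 0.11 and 0.15 over all genes, of which 45.9% and 53.7% were called. NCED3, which makes abscisic acid, was 1.19 ± 0.0927 FPKM at CT and 21.0, 41.1 and 22.2 FPKM at S+EL in WT (3.67 ± 0.33, adjusted p 8.34e-08), and 26.3, 22.7 and 10.95 FPKM at S+EL in the rap2.3-labelled libraries (3.03 ± 0.38, adjusted p 4.80e-06). PAD3, the camalexin enzyme that WRKY33 activates, was 0.170, 0.347 and 0.201 FPKM at CT and 3.83, 3.91 and 4.04 FPKM at S+EL in the rap2.3-labelled libraries (1.99 ± 0.28, adjusted p 1.70e-05). In WT it was 5.99, 0.658 and 3.55 FPKM at CT and 4.96, 8.70 and 8.68 FPKM at S+EL, which overlap and did not pass (adjusted p 0.0557). Heat lowered 5 of the 11 and raised 1 in WT and lowered 6 and raised 0 in the rap2.3-labelled libraries, where 47.4% and 50.3% of all genes were called. Of 10 rapidly stress-induced genes tested, heat lowered CML38, ERF5 and ERF6 and raised TCH2 in both genotypes. ERF6 fell in WT by -0.75 ± 0.16 (adjusted p 5.35e-04) and ERF5 by -0.66 ± 0.18 (adjusted p 0.00484).

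Likeness of pattern was measured as Pearson's r of mean log2(FPKM + 1) over the 16 groups, as a description, since the groups share libraries and conditions. Among the members the closest pairs were WRKY6 and WRKY33 (r = 0.806), WRKY6 and WRKY30 (0.8), WRKY33 and WRKY40 (0.779) and WRKY30 and WRKY53 (0.766). WRKY25 with WRKY18 gave 0.658, and WRKY22 with WRKY46 gave the lowest value, -0.604. Other genes were searched only among tested genes whose group means reached a fixed minimum SD, not among all tested. Those most like WRKY25 were AT2G32190 (0.976), ABR1 (0.964) and NFXL1 (0.962). For WRKY18 they were AT3G56200 (0.93), SLAH2 (0.923) and NRT1.8 (0.922), and for WRKY60 CHX16 (0.95), AT4G21903 (0.949) and AT2G34190 (0.948). WRKY30 was closest to CRK14 (0.956), WRKY46 to AT2G16760 (0.942), WRKY6 to EDA39 (0.939) and WRKY33 to AT4G02410 (0.918). WRKY22 was closest to another WRKY gene, WRKY49 (0.895), WRKY53 to AT3G51450 (0.888) and WRKY40 to PGIP1 (0.865).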

How the data were processed

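The deposited values are FPKM per gene and library, which the authors made with HISAT2 and Cufflinks on TAIR10, per the submitters' processing notes. The annotation, the use of strand and read totals are not given in the sources used here. Genes at 1 FPKM or more in at least 3 libraries were kept, and log2(FPKM + 1) was fitted with limma 3.58.1 in R 4.3.3, with a trend and 1 mean per group, for WT (20744 genes), the rap2.3-labelled libraries (20592) and all 48 (21322). P-values were adjusted over all genes of a contrast (Benjamini-Hochberg) and called under 0.05, with 65 contrasts in all. The fit was tested on simulated data. Named genes are the 10 members, genes of the related lists, the 3 other WRKY genes with the largest increases and decreases under S+EL+HS in WT, and up to 3 genes most like each member. Members and lists were chosen with earlier results of these data known. The labels call replicates biological repeats and say no more of their source. Replicate numbers were taken as paired where all 3 correlations of same-numbered deviations from the group means were above 0.1. Of the group pairs compared, only the genotypes at EL met this (0.52, 0.103 and 0.414 over 21322 genes). Correlations between the genotypes were also positive at HS (0.357, 0.0334 and 0.349), S+EL (0.304, 0.0357 and 0.215) and S+HS (0.267, 0.171 and 0.0825). Those at S (0.0757, 0.0956 and 0.262) and CT (0.0314, 0.109 and 0.0686) were positive too. So were those at EL+HS (0.016, 0.052 and 0.121) and S+EL+HS (0.0135, 0.0683 and 0.0241). The main fits held no block for replicate number, at EL either, so some pairing may remain in the genotype comparisons. Genotype calls that a block within each treatment changed are given beside the main ones. Alternatives were a pseudocount of 0.1, no filter, size factors, replicate blocks, only the compared libraries, and each library left out. Promoter windows came from the TAIR10.1 genome and annotation. Figures used Python 3.11.15 and matplotlib 3.10.9.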

Additional observations from a re-analysis of the deposited data

How the results depend on the processing

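No result that was called, as reported or in an alternative, changed direction in that alternative. Directions of results called in neither were not compared. Of 87 called results, 5 were lost with a pseudocount of 0.1, 8 with no filter, 5 with rescaling and 4 with the replicate block, and of 62 called results 9 were lost with only the compared libraries. The number of members called moved as follows, with the smaller moves left out. With a pseudocount of 0.1 it was 1 under EL in the rap2.3-labelled libraries (0 as reported), 2 for the mean genotype difference (1) and 1 summed over the genotype comparisons at 8 treatments (0). With rescaling it was 5 under S+HS in WT (3) and 1 under EL in the rap2.3-labelled libraries. With the replicate block it was 2 under S+EL in WT (1) and 1 under EL in the rap2.3-labelled libraries. With a block by replicate number within each treatment it was 3 for the mean genotype difference and 3 summed over 8 treatments. With only the compared libraries it was 2 under S+EL in WT, 1 under EL and 5 under S+HS (3) in the rap2.3-labelled libraries.

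Leaving out each library in turn gave, in WT, 0 to 1 members under EL, 2 to 3 under HS and 1 to 2 under S. It gave 1 to 3 under S+EL, 2 to 4 under S+HS and 2 to 3 under S+EL+HS. In the rap2.3-labelled libraries it gave 0 to 1 under EL, 1 to 2 under S and 1 to 2 under EL+HS. There S+EL gave 2 to 7 and S+HS 2 to 4. The mean effects gave 0 to 3 for light, 3 to 6 for heat and 2 to 6 for salt in WT. They gave 1 to 4 for light, 4 to 6 for heat and 7 to 10 for salt in the rap2.3-labelled libraries. The genotype comparison gave 0 to 2 for the mean and 0 to 1 summed over 8 treatments. The cause of these moves was not tested. Read totals are unknown, so the counting error of the weakly expressed WRKY30, WRKY46 and WRKY53 is unknown.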

Other observations

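Of the other WRKY genes, 43 were tested in WT and 44 in the rap2.3-labelled libraries. Against CT, S+EL+HS raised 10 and lowered 8 in WT and raised 16 and lowered 5 in the rap2.3-labelled libraries (limma, adjusted p under 0.05), where 39.9% and 42.7% of all genes were called. The increases with the largest sizes in WT included WRKY75, known from phosphate starvation and senescence, which went from 5.54 ± 2.87 to 15.3 ± 1.42 FPKM (SD, n = 3; 1.40 ± 0.38 on the log2 scale, SE, adjusted p 0.0065). WRKY14 went from 5.06 ± 0.314 to 11.8 ± 2.20 FPKM (1.06 ± 0.17, adjusted p 7.15e-05), and WRKY24 passed at 0.94 ± 0.35 (adjusted p 0.0415). WRKY49 fell from 6.32 ± 1.58 to 0.739 ± 0.326 FPKM (-2.07 ± 0.31, adjusted p 2.45e-05). WRKY28 (-0.99 ± 0.28, adjusted p 0.00909) and WRKY7 (-0.69 ± 0.17, adjusted p 0.00241) fell as well. Averaged over backgrounds, salt raised 22 and lowered 4 of 43 in WT, and heat raised 6 and lowered 15, against 45.9% and 47.4% of all genes called.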
